A study of Mus musculus with 8 samples.

Results

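Granzyme B, granzyme A and perforin are the core cargo of the cytotoxic granule, encoded by Gzmb, Gzma and Prf1. They are described here as they were measured in CD8+ dendritic cells, a lineage better known for presenting antigen than for killing. The 3 genes were chosen because Gzmb had fallen between 4 and 16 hours in cells kept in medium alone, and because Gzma and Prf1 belong to the same granule in natural killer (NK) cells and cytotoxic T cells. Each gene had 1 probe set on the array, so the set holds 3 of 8251 genes measured, through 3 of 12422 probe sets. The choice used the values of Gzmb in medium, and those values are therefore given as a description with no test.

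Dendritic cells with the label CD8+ had been isolated from spleens of female DBA/2J mice, 60 days old, that had received Flt3-L (10 µg, over 9 days). Flt3-L is the ligand of the Flt3 receptor and enlarges the dendritic cell compartment, so all groups came from expanded cells. The 4 groups, with 2 Affymetrix MG-U74Av2 arrays each, were cells in 200 U/ml of mouse IFN-gamma for 16 hours, in medium alone for 16 hours, in IFN-gamma for 4 hours, and in medium alone for 4 hours. IFN-gamma (IFN-γ) is the interferon made by NK and T cells. Whether the arrays within a group stand for independent animals or cultures is not given in the labels, and the p-values then rest on array-to-array spread alone, which technical steps may set. No uncultured cells are among the samples, so a level at 4 hours cannot be set against the level before culture.

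In a killer cell, granzymes are serine proteases made as inactive precursors, activated by the dipeptidyl peptidase cathepsin C and stored in secretory lysosomes on the proteoglycan serglycin. When the granule is released against a target, perforin makes pores in the target's membrane and lets the granzymes in. Granzyme B then cuts after aspartate, caspases and Bid among its substrates, while granzyme A cuts after lysine or arginine. Granzyme B is also known to be made without perforin by some other leukocytes, plasmacytoid dendritic cells and mast cells among them.

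The 250 bases before the annotated start of each gene are shown because Gzmb was read above unspecific signal on these arrays and Gzma and Prf1 were not. They come from RefSeq on build GRCm38.p6 and are written on the strand of the gene. The Gzmb window is chr14:56262335-56262584 on the minus strand, the Gzma window chr13:113100982-113101231 on the minus strand, and the Prf1 window chr10:61297586-61297835 on the plus strand. Capitals mark the motifs found.
Gzmb: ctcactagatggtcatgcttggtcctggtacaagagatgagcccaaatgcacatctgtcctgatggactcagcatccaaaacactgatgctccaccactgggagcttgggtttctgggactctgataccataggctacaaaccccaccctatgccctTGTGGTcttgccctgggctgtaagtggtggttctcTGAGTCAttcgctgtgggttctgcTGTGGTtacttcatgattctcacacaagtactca
Gzma: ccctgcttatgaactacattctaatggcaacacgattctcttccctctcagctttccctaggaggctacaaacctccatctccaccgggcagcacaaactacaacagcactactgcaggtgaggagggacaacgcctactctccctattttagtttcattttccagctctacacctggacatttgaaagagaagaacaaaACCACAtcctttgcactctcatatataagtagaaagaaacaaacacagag
Prf1: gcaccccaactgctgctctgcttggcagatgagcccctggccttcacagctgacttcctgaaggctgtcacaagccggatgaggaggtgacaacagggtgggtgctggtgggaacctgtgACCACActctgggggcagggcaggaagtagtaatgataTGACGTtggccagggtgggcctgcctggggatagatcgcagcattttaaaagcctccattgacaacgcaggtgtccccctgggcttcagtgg
3 motifs were searched on both strands, and no matches overlapped. The AP-1 motif TGANTCA was found in Gzmb, as TGAGTCA from 58 to 52 bases before the start. The RUNX motif TGTGGT was found in Gzmb from 93 to 88 and from 34 to 29 bases before the start. On the opposite strand, as ACCACA, it was found from 50 to 45 bases before the start of Gzma and from 130 to 125 bases before that of Prf1. The motif TGACGT, a part of the CRE motif, was found in Prf1 from 92 to 87 bases before the start. Over 32851 promoter windows of the same length, TGANTCA was present in 6.75%, TGTGGT in 14% and TGACGT in 6.47%. A match in these letters is a description of the sequence and was not tested as a binding site.

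The arrays had like overall signal, with medians over all probe sets from 51.3 to 53.7. Unspecific signal was read from 15 antisense control probe sets, whose median on an array lay between 44.9 and 61.2, or between 5.49 and 5.93 on the log2 scale. A gene is called below, level with or above the antisense controls according to where its mean lies against that range. The ratio of the 3′ to the 5′ Actb probe set, which rises when target RNA is shorter, was 2.04 and 2.20 on the medium arrays at 4 hours, whereas the remaining 6 arrays had 1.47 to 1.68. Replicate arrays differed more at 16 hours, where the SD of their difference was 0.311 with IFN-γ and 0.241 in medium at 16 hours, against 0.176 with IFN-γ and 0.170 in medium at 4 hours. Of 15 markers of CD8+ dendritic cells, 13 were measured, 10 of them above the antisense controls, 1 level with them and 2 below. Among those above, Cd8a, a chain of the CD8 coreceptor, had log2 intensities between 8.74 and 9.08 over the 8 arrays. Itgax, the integrin CD11c, lay between 6.13 and 6.51, and Irf8, a transcription factor that this lineage needs, between 9.53 and 10.64. T cell markers, Cd8b1 among them, were also above the controls, so Cd8a alone does not tell these cells from T cells.

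Gzmb was well above the antisense controls in all 4 groups, and at 16 hours it had 24.1% of its 4-hour level with IFN-γ and 24.7% in medium. Gzma lay below the antisense controls and Prf1 level with them in all 4 groups, so neither was measured above unspecific signal. No change of either was measured beside the fall of Gzmb.

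Gzmb had intensities of 128 and 146 with IFN-γ at 16 hours, against 576 and 557 with IFN-γ at 4 hours. On the log2 scale these are 7.0 and 7.19, against 9.17 and 9.12. Both 16-hour arrays lay far below both 4-hour arrays. The log2 difference was -2.05 (SE 0.13, 95% confidence interval -2.34 to -1.76), with an adjusted p of 0.000206 in limma's moderated test over all probe sets, and the 16-hour level was 24.1% of the 4-hour level. By size of fall, Gzmb stood at place 2 of the 12422 probe sets. Of the members, 1 of 3 was called lower in this comparison, against 1.3% of all probe sets called lower. Gzmb was chosen for its fall in medium over the same hours, so this share is not independent of the choice. Within replicate numbers, the differences were -2.17 for array 1 and -1.93 for array 2. Over 18 alternative settings, the difference lay between -2.15 and -1.93 and the adjusted p between 1.09e-05 and 0.00534. In bulk RNA, fewer cells of a type that carries the transcript and less transcript per cell cannot be told apart.

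In medium alone, the comparison from which Gzmb was chosen, the intensities were 100.3 and 122 at 16 hours, against 450 and 449 at 4 hours. The log2 values were 6.65 and 6.94, against 8.81 and 8.81. The log2 difference was -2.02, so that the 16-hour level was 24.7% of the 4-hour level. No test is given, and the share of all probe sets called lower in medium, 2.57%, is given only as background.

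**Figure D1:**
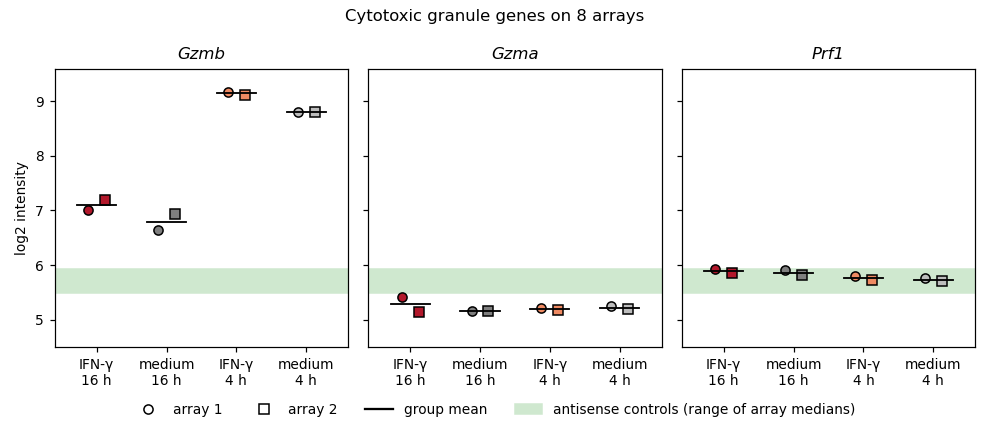
Log2 intensity of Gzmb, Gzma and Prf1 on each of the 8 arrays (circles array 1, squares array 2) in the 4 groups, with group means as lines and the range of antisense control medians as a green band. Gzmb lies between 6.65 and 7.19 at 16 hours and between 8.81 and 9.17 at 4 hours, while Gzma and Prf1 stay between 5.14 and 5.93.

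Gzmb was higher with IFN-γ at both times, by less than it differed between times. At 4 hours Gzmb averaged 9.15 ± 0.03 with IFN-γ and 8.81 ± 0.00 in medium (log2 intensity, SD, n = 2 each). Both IFN-γ arrays lay above both medium arrays, by a log2 difference of 0.33 (SE 0.13, interval 0.04 to 0.62), which had an unadjusted p of 0.0281 and an adjusted p of 0.939 in limma. At 16 hours Gzmb averaged 7.09 ± 0.13 with IFN-γ and 6.79 ± 0.20 in medium. Again both IFN-γ arrays were the higher ones, and the difference of 0.30 (interval 0.01 to 0.59) had an unadjusted p of 0.0424 and an adjusted p of 0.9998 in limma. It was 0.16 without medium array 1 and 0.45 without medium array 2 of the 16-hour group. Within replicate numbers 1 and 2, the differences were 0.36 and 0.31 at 4 hours, and 0.35 and 0.25 at 16 hours. Ordered from the largest fall to the largest rise, Gzmb stood at place 12125 of 12422 at 4 hours and 12238 at 16 hours. Neither difference passed the threshold over all probe sets. At the same threshold 0.258% of all probe sets were called higher and 0% lower with IFN-γ at 4 hours, and 0.161% higher and 0.0966% lower at 16 hours. With replicate number as a block the adjusted p values for Gzmb were 0.286 at 4 hours and 0.473 at 16 hours, where the block called 1.09% of all probe sets higher and 0.177% lower at 4 hours, and 0.411% higher and 0.435% lower at 16 hours. These 2 comparisons use the medium arrays from which Gzmb was chosen.

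The IFN-γ effect on Gzmb at 16 hours minus that at 4 hours was -0.03 on the log2 scale (SE 0.18, interval -0.44 to 0.38). No probe set was called for this difference (0%), and with the block 0.242% were called lower. The same number is the fall of Gzmb with IFN-γ minus its fall in medium. The fall in medium is the value Gzmb was chosen on, so this difference is given as a description with no test.

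Gzma had log2 intensities of 5.41 and 5.14 with IFN-γ at 16 hours, against 5.21 and 5.17 with IFN-γ at 4 hours. In medium it had 5.16 and 5.16 at 16 hours, against 5.25 and 5.19 at 4 hours. The IFN-γ arrays at 16 hours spanned the other 6 values, the medium arrays at 16 hours lay just below the 4-hour arrays, and all 8 values lay under the lowest antisense median. The difference between 16 and 4 hours with IFN-γ was 0.09 (interval -0.18 to 0.35, adjusted p 0.772 in limma), and the IFN-γ effect was -0.03 at 4 hours and 0.12 at 16 hours. A probe set below unspecific signal does not say whether the transcript was absent.

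Prf1 had log2 intensities of 5.93 and 5.85 with IFN-γ at 16 hours, against 5.80 and 5.72 with IFN-γ at 4 hours. In medium it had 5.90 and 5.81 at 16 hours, against 5.76 and 5.70 at 4 hours. All 8 values lay within the range of the antisense medians. The difference between 16 and 4 hours with IFN-γ was 0.13 (interval -0.11 to 0.37, adjusted p 0.638 in limma), and the IFN-γ effect was 0.03 at both times. A fall of the size of that of Gzmb lies outside the intervals of both Gzma and Prf1, but at this signal level the intensities may understate a change of the transcript.

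**Figure D2:**
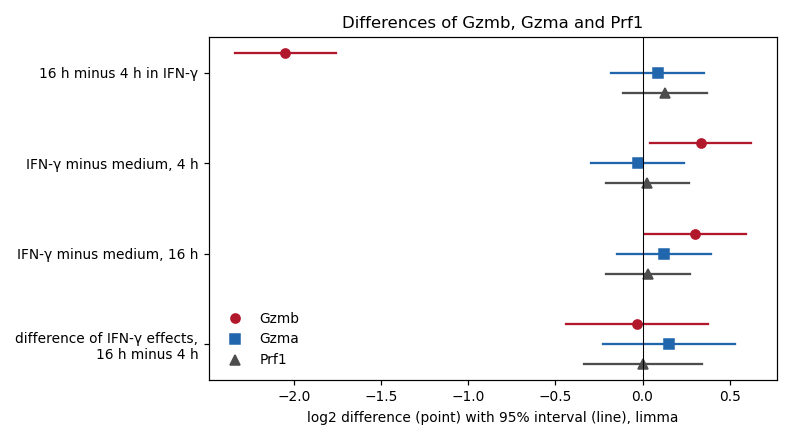
Log2 difference (points) and 95% confidence interval (lines) from limma for Gzmb, Gzma and Prf1 in 4 comparisons. The difference of -2.05 for Gzmb between 16 and 4 hours with IFN-γ stands alone at the left, and the intervals of Gzma and Prf1 include 0 throughout.

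Of the 8 other granzyme genes, 6 were measured by a probe set of their own, and all 6 lay below the antisense controls on average. On chromosome 14, RefSeq places Gzmb at the end of a row of granule proteases in the order Mcpt8, Ctsg, Gzme, Gzmd, Gzmg, Gzmn, Gzmf, Gzmc, Gzmb. Its immediate neighbour Gzmc had a mean log2 intensity of 4.19, and Gzmf, Gzmg and Gzmd had 3.32, 4.11 and 3.49. Gzme and Gzmn had no probe set of their own. Of the 5 granzyme genes of this row that were measured, Gzmb, with a mean of 7.96, was the one read above unspecific signal. At the far end, Ctsg, the gene of the neutrophil protease cathepsin G, was level with the antisense controls at 5.76, and Mcpt8, a basophil protease, was above them at 6.74. Gzma lies next to Gzmk on chromosome 13, and Gzmk had a mean of 4.26. Gzmm, the granzyme with a preference for methionine, ranged from 5.37 to 5.74. None of the 6 other granzymes was called in any comparison by limma, with or without the replicate block, and 0 had an unadjusted p under 0.05.

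Unlike Gzmb, Mcpt8 was higher at 16 hours. It differed by 0.78 with IFN-γ (adjusted p 0.0245 in limma) and by 0.58 in medium (adjusted p 0.0498), although its dimmer probe set, between 2.75 and 3.28, differed by 0.13 and -0.18. Mcpt2, a mucosal mast cell protease of the same locus family, was also called higher with IFN-γ, by 0.87 (adjusted p 0.0335), from values at or below the antisense controls. Both calls with IFN-γ were lost without any 1 of the 4-hour arrays, and that of Mcpt8 in medium without any 1 of the medium or 4-hour arrays.

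Beyond the 3 members, 67 of 86 genes listed for the granule and its targets were measured, 38 of them above the antisense controls. With IFN-γ, 3 were called higher and 4 lower at 16 hours than at 4 hours, where 0.821% of all probe sets were called higher and 1.3% lower. The median difference was -0.04 over the 67 genes and 0.05 over all probe sets. In medium 2 were called higher and 5 lower at 16 hours, against 1.71% and 2.57% of all probe sets. With the replicate block the counts were 4 higher and 17 lower with IFN-γ, against 3.2% and 6.94% of all probe sets. In medium the block called 7 higher and 16 lower, against 4.52% and 8.09% of all probe sets. These shares also stand behind the counts of the single lists that follow. Listed genes were counted by their brightest probe set, whereas the shares are over all probe sets, dim ones included. Without the dimmest 40% of probe sets, 123 were called higher and 204 lower with IFN-γ, against 102 and 161 of all, so the shares are a low yardstick. An unadjusted p under 0.05 in limma was found for 1706 of the 12422 probe sets between 16 and 4 hours with IFN-γ. For IFN-γ against medium the number was 499 at 4 hours and 426 at 16 hours, and for the difference of effects 353. The lists were drawn up with earlier results of these data known, so the counts describe them and are no independent evidence of a direction.

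Among cargo and processing genes, 1 of 12 measured was called higher and 2 lower with IFN-γ at 16 hours, against 0.821% and 1.3% of all probe sets. Srgn, the core protein of serglycin, on which granzymes are stored, had log2 intensities of 6.78 and 6.97 with IFN-γ at 16 hours, against 7.78 and 7.90 at 4 hours. In medium it had 6.38 and 6.94 at 16 hours, against 7.57 and 7.69 at 4 hours. It fell by 0.97 with IFN-γ and likewise in medium (SE 0.17, adjusted p 0.0267 with IFN-γ and 0.0180 in medium, limma). The 16-hour values lay below the 4-hour values on every array, at less than the size of the fall of Gzmb.

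Cd63, a tetraspanin of secretory lysosomes, had 8.19 and 8.56 with IFN-γ at 16 hours, against 9.66 and 9.82 at 4 hours. It fell by 1.36 with IFN-γ (adjusted p 0.00853, limma), and by 0.85 in medium (adjusted p 0.0379), where it had 8.69 and 9.17 at 16 hours, against 9.66 and 9.91 at 4 hours. The IFN-γ effect on Cd63 at 16 hours was called under the block alone.

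Ctsl, the lysosomal protease cathepsin L, moved the other way, with 6.88 and 7.09 at 16 hours against 6.07 and 6.11 at 4 hours with IFN-γ. It rose by 0.90 with IFN-γ (adjusted p 0.0446, limma) and by 1.45 in medium (adjusted p 0.00388), where it had 7.79 and 8.43 at 16 hours, against 6.69 and 6.63 at 4 hours. At 16 hours it was lower with IFN-γ than in medium by a log2 difference of -1.12, with an adjusted p of 0.0592, or 0.00486 with the replicate block.

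Ctsc encodes cathepsin C, the enzyme that removes the activating dipeptide from granzymes. It had 8.12 and 8.78 with IFN-γ at 16 hours, against 7.76 and 7.83 with IFN-γ at 4 hours, and 7.64 and 8.15 in medium at 16 hours, against 7.21 and 7.32 in medium at 4 hours. Its lowest values were those of the medium arrays at 4 hours, where Gzmb was high. The difference of 0.66 with IFN-γ did not pass in limma (adjusted p 0.193), and passed with the replicate block (adjusted p 0.0164). It was 0.33 without IFN-γ array 2 and 0.98, and called, without IFN-γ array 1 of the 16-hour group, and 0.29 as a mean of its probe sets. Cst7, cystatin F, an inhibitor of cathepsin C, stayed between 7.76 and 8.07, and Ctsw, a cathepsin named for its expression in lymphocytes, between 7.91 and 8.42.

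Of the granzyme inhibitors, 1 of 4 measured was called lower, where 1.3% of all probe sets were called lower with IFN-γ and 2.57% in medium. Serpinb9 is the mouse serpin that blocks granzyme B inside the cells that make it or meet it. It had 9.32 and 9.78 with IFN-γ at 16 hours, against 10.56 and 10.71 at 4 hours, and 9.24 and 9.70 in medium at 16 hours, against 10.21 and 10.35 at 4 hours. It fell by 1.09 with IFN-γ (SE 0.19, adjusted p 0.0223, limma) and by 0.81 in medium (adjusted p 0.0461). The Serpinb9 transcript was lower at the time when that of Gzmb was lower, by a smaller log2 difference, and the Serpinb9 probe set remained bright. Neither protein was measured.

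The calls of Srgn, Serpinb9, Ctsl and Lmnb1 with IFN-γ were lost without any 1 of the 4-hour arrays, and that of Cd63 without IFN-γ array 1 or 2 of the 4-hour group. Those of Srgn, Serpinb9, Ctsl and Lmnb1 were also lost without IFN-γ array 1 at 16 hours, and that of Ctsl without array 2. In medium, the calls of Srgn, Serpinb9 and Cd63 were lost without either medium array at 4 hours or medium array 1 at 16 hours, those of Serpinb9 and Cd63 also without IFN-γ array 1 or 2 of the 4-hour group, and that of Ctsl in no such fit. Gzmb, by contrast, passed with IFN-γ in each of the 8 fits that left 1 array out.

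**Figure D3:**
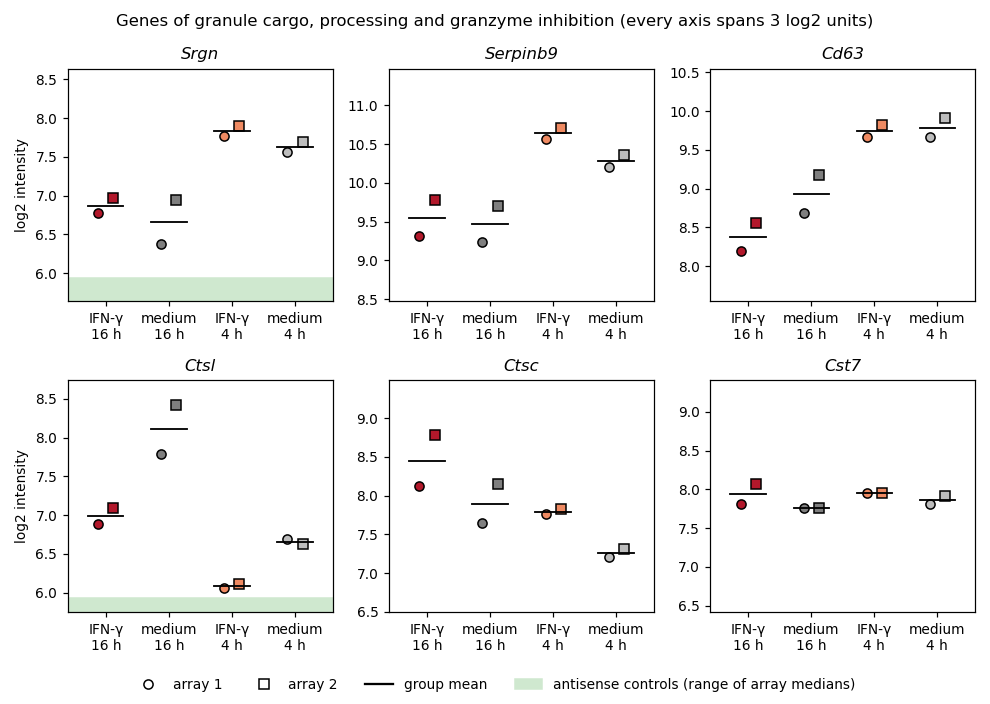
Log2 intensity of Srgn, Serpinb9, Cd63, Ctsl, Ctsc and Cst7 on each array (circles array 1, squares array 2) by group, with group means as lines, the antisense band in green where it falls in view, and axes of equal span. Srgn, Serpinb9 and Cd63 sit lower at 16 hours than at 4 hours with and without IFN-γ, Ctsl and Ctsc have higher means at 16 hours with and without IFN-γ, and Cst7 stays between 7.76 and 8.07.

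Of 7 genes of granule exocytosis measured, limma called 0 with IFN-γ at 16 against 4 hours, 0 had an unadjusted p under 0.05, and Vti1b was called lower with the replicate block. Vti1b, Vamp8, Ap3b1 and Lyst, which serve lysosomal fusion and sorting, differed by -0.47, 0.18, -0.17 and 0.16. For Vti1b the value was -0.098 without IFN-γ array 1 and -0.84 without IFN-γ array 2 of the 16-hour group. Among substrates of granzymes, 1 of 11 was called lower: Lmnb1, the gene of lamin B1, fell by 0.64 (adjusted p 0.0338, limma). The replicate block called 5 of the 11 lower with IFN-γ and 4 in medium, against 6.94% and 8.09% of all probe sets. Nme1, which the block called in both, lay below the antisense controls at a mean of 4.34. Without the block, 2 were called lower in medium, against 2.57% of all probe sets, and these are substrates of granzyme A. Apex1, a DNA repair enzyme, fell by 0.77 (adjusted p 0.0236, limma), and Set, a nuclear protein of the same complex, by 0.74 (adjusted p 0.0362). The second brightest probe set of Set differed by -0.68 and did not pass (adjusted p 0.218), but passed with the replicate block (adjusted p 0.0202). The call of Apex1 was lost without either medium array at 4 hours or medium array 1 at 16 hours, and that of Set without any 1 of the medium or 4-hour arrays.

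Of the other killing molecules, limma called 0 of 6 with IFN-γ at 16 against 4 hours, 3 had an unadjusted p under 0.05, and the replicate block called Fas, Ifng and Tnf lower. Fasl, the ligand of the death receptor Fas, ranged from 4.28 to 4.54 and Ifng, the gene of IFN-γ itself, from 2.40 to 2.98, both below the antisense controls. Tnf differed by -0.41 with IFN-γ between 16 and 4 hours (adjusted p 0.0965, and 0.0206 with the block, limma). Among 15 measured regulators of granzyme transcription, 0 were called with IFN-γ and 6 had an unadjusted p under 0.05. The replicate block called 5 lower, against 6.94% of all probe sets. Il15ra, which presents interleukin-15 to NK and T cells, differed by -0.64 (adjusted p 0.0516, and 0.0032 with the block). Stat4 and Id2, a signal transducer of interleukin-12 and a transcription factor of this dendritic cell lineage, differed by -0.45 and -0.54, with adjusted p values of 0.135 and 0.145, or 0.0344 and 0.0143 with the block. Without IFN-γ array 2 of the 16-hour group both were called, at -0.60 and -0.79, and without array 1 they were -0.30 and -0.29 and were not called. Prdm1, the gene of Blimp-1, ranged from 4.56 to 4.99, below the antisense controls.

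IFN-γ against medium called 0 of the 67 genes at 4 hours by limma, where 8 had an unadjusted p under 0.05 and the replicate block called 0. At 16 hours it called 0, with 4 at an unadjusted p under 0.05, and with the block 3: Il12rb1 higher, Ctsl and Cd63 lower. For the difference between the effects at 16 and at 4 hours it called 0, with 2 at an unadjusted p under 0.05 and 0 with the block.

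Markers of the cells that normally carry these granules were set beside Gzmb. Of 22 NK cell markers, 14 were measured: 5 were above the antisense controls (Klrk1, Klrd1, Il2rb, Xcl1 and Ccl5) and 9 below them. Ncr1, the defining NK cell receptor NKp46, ranged from 2.65 to 2.91. None of the 14 was called with IFN-γ between 16 and 4 hours in limma, where 3 had an unadjusted p under 0.05 and the block called 0. Summed over the 14 probe sets, intensity lay between 4835 and 5173 with IFN-γ at 16 hours and between 5629 and 6407 at 4 hours. In medium the sum lay between 5147 and 5254 at 16 hours and between 5484 and 6112 at 4 hours. Most of this sum was Ccl5, a chemokine that dendritic cells also make, at log2 intensities of 12.02 to 12.47. The summed intensity was lower at 16 hours on every array, by far less than Gzmb, and Ccl5 differed by -0.29 with IFN-γ and -0.20 in medium. The markers did not fall together. Of the 14, 8 had a positive difference between 16 and 4 hours with IFN-γ and 8 in medium, with medians of 0.02 and 0.10. The median over all probe sets was 0.05 in both. The part of NK cells in the fall of Gzmb was not tested. The 6 other granzymes summed to between 119 and 139 with IFN-γ at 16 hours and between 117 and 124 at 4 hours.

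T cell transcripts were present throughout. Of 15 T cell markers measured, 12 were above the antisense controls, and Cd3e, a chain of the CD3 complex, ranged from 7.64 to 8.16. The sum over the T cell markers lay between 3234 and 3512 with IFN-γ at 16 hours, against 3241 and 3360 at 4 hours, and between 3204 and 3378 in medium at 16 hours, against 3285 and 3474 at 4 hours. The groups overlapped. With IFN-γ at 16 against 4 hours limma called 0 of the 15, 2 had an unadjusted p under 0.05, and the replicate block called Cd28 lower. The part of T cells in the fall of Gzmb was not tested.

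Markers of other cells that are known to hold Gzmb were summed in the same way. Of plasmacytoid dendritic cell markers, 7 of 10 were measured and 5 were above the antisense controls. Their sum lay between 2230 and 2397 with IFN-γ at 16 hours, against 1985 and 2009 at 4 hours, and between 2251 and 2306 in medium at 16 hours, against 2064 and 2117 at 4 hours. For mast cells and basophils, 10 of 11 were measured, 4 above and 4 below the antisense controls. Their sum lay between 581 and 596 with IFN-γ at 16 hours, against 488 and 518 at 4 hours, and between 576 and 578 in medium at 16 hours, against 485 and 517 at 4 hours. Both sums were higher at 16 hours, and their relation to Gzmb was not tested. In the mast cell and basophil sum, 2 markers were level with the antisense controls and 4 below them, so much of it is unspecific signal. Mcpt8 is part of that sum, with intensities of 123 and 138 with IFN-γ at 16 hours, against 70.4 and 82.4 at 4 hours. Of the 7 plasmacytoid dendritic cell markers, 4 had a positive difference with IFN-γ and 4 in medium.

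B cell markers, 9 of 10 measured and 8 above the antisense controls, summed to between 8466 and 8894 with IFN-γ at 16 hours and to between 6545 and 6821 at 4 hours. In medium they summed to between 8229 and 8339 at 16 hours and to between 7083 and 7590 at 4 hours. With IFN-γ all 9 had a positive difference and an unadjusted p under 0.05, which 1706 of the 12422 probe sets had in limma. The replicate block called 8 of the 9 higher with IFN-γ and 3 in medium, against 3.2% and 4.52% of all probe sets. Without the block, 2 of them were called higher with IFN-γ at 16 hours: Cd22, an inhibitory receptor, by 0.89 (adjusted p 0.0228, limma), and Blk, a kinase, by 0.62 (adjusted p 0.0436, and 0.48 with an adjusted p of 0.177 for its dimmer probe set), both lost without any 1 of the 4-hour arrays, and that of Blk also without medium array 1 or 2 or IFN-γ array 2 of the 16-hour groups. The part of these cell types in the fall of Gzmb was not tested.

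The markers of the cells themselves were also lower in sum at 16 hours. The sum over 13 CD8+ dendritic cell markers lay between 8739 and 9543 with IFN-γ at 16 hours, against 9626 and 9801 at 4 hours, and between 9025 and 9465 in medium at 16 hours, against 9819 and 9935 at 4 hours. It was lower on every 16-hour array, by far less than Gzmb. The markers did not all fall: 6 of the 13 had a positive difference with IFN-γ and 5 in medium, with medians of -0.09 and -0.05. With IFN-γ, Flt3, the receptor of Flt3-L, was called lower by a difference of -0.52 (adjusted p 0.0385, limma), although its dimmer probe set differed by 0.05, and the call was lost without any 1 array except IFN-γ array 2 of the 16-hour group. Of the 13, 7 had an unadjusted p under 0.05, and the replicate block called 5 lower and 1 higher, against 6.94% and 3.2% of all probe sets. In medium Irf8 was called lower by a difference of -0.47 (adjusted p 0.0385), and the block called 5 lower, against 8.09% of all probe sets. At 16 hours Irf8 was called higher with IFN-γ than in medium by 0.82 (adjusted p 0.0158). Both Irf8 calls were lost without any 1 of the medium or 4-hour arrays. Whether these shifts and the fall of Gzmb belong together was not tested.

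**Figure D4:**
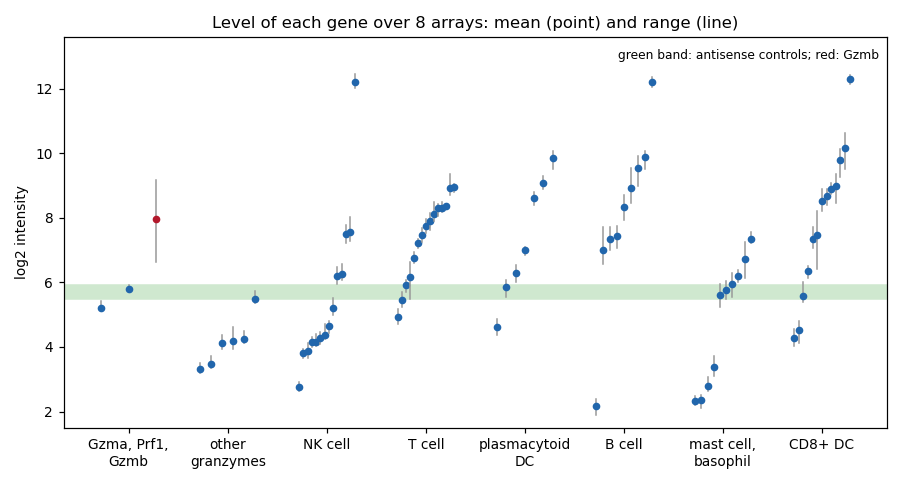
Mean log2 intensity over the 8 arrays (points) and range (lines) of each measured gene, for Gzma, Prf1 and Gzmb (red), the other granzymes and 6 sets of cell markers, with the antisense controls as a green band. All 6 other granzymes and 9 of 14 NK cell markers lie below the band, while 12 of 15 T cell and 8 of 9 B cell markers lie above it.

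The pattern of Gzmb over the 8 arrays was set against every gene whose mean log2 intensity was above 5.73, the middle of the array medians of the antisense controls, 4796 genes in all. Likeness was the root mean square difference between log2 values after each gene was centred on its own mean, so a small number means a like pattern. A gene with the same value on all arrays would have 1.03. Neither Gzma, at 1.04, nor Prf1, at 1.10, was nearer to Gzmb than such a flat gene. Both probe sets read at or below unspecific signal, so their distance does not say whether the transcripts move with Gzmb.

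None of the 10 genes most like Gzmb was on the granule lists. Il1rn, the interleukin-1 receptor antagonist, came first at 0.325, then Laptm4b, a lysosomal membrane protein, at 0.355, and Cd40, the costimulatory receptor for CD40 ligand, at 0.378. They were followed by the metallothionein genes Mt1 at 0.433 and Mt2 at 0.457, the chemokine gene Ccl22 at 0.444, and Procr, the endothelial protein C receptor, also at 0.444. The other members were Csrp1 at 0.462, Psat1, an enzyme of serine synthesis, at 0.464, and Nxf1, an mRNA export factor, at 0.476. Of the granule genes, the nearest were Srgn at place 22, Serpinb9 at 25 and Cd63 at 32 among the 4796. Others lay at the far end, among them Lyst at 4581, Ctsc at 4710, Mcpt8 at 4732 and Ctsl at 4788, so the granule genes did not stand together.

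Il1rn differed by -2.10 between 16 and 4 hours with IFN-γ, and had log2 intensities of 6.21 and 6.54 at 16 hours, against 8.51 and 8.43 at 4 hours. Laptm4b, Cd40 and Ccl22 differed by -1.48, -1.49 and -1.56 in the same comparison. The 10 genes differed among themselves in the effect of IFN-γ at 4 hours, which was 0.66 for Cd40 and 0.81 for Procr, against 0.33 for Gzmb, and -0.31 for Ccl22. These genes were chosen from all 8 arrays for their likeness to Gzmb, so their differences are a description, and points on the same arrays share the same RNA.

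**Figure D5:**
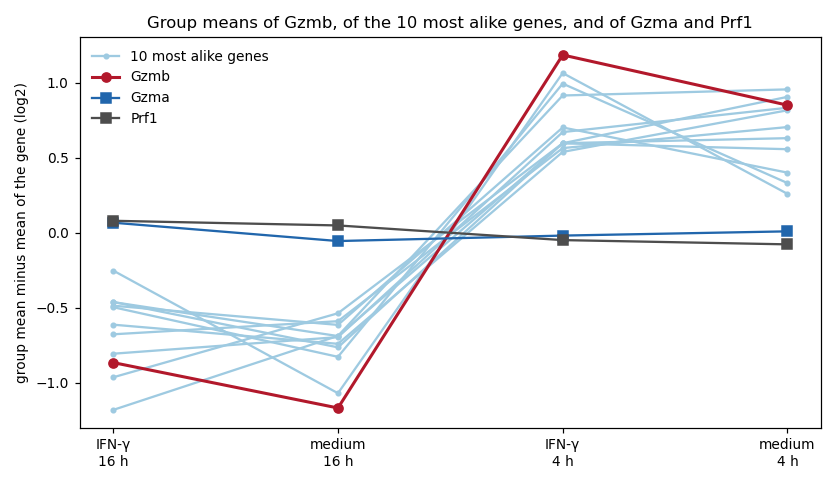
Group means of Gzmb (red), of its 10 most alike genes (light blue), and of Gzma and Prf1, each minus the mean of its own gene (log2), with IFN-γ at 16 hours, medium at 16 hours, IFN-γ at 4 hours and medium at 4 hours from left to right. The lines join groups and show no time course. Gzmb and the 10 genes are below their means at 16 hours and above them at 4 hours, while Gzma and Prf1 stay near 0.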

How the data were processed

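The authors deposited 1 intensity per probe set and array, on a linear scale, from 2.65 to 12523.5. RMA is named in the submitters' processing notes, and its settings are not given there. Log2 was taken here from the deposited intensity with no pseudocount and no further normalization. Of 12488 probe sets, 66 controls were left out. Symbols came from the platform annotation, matched to RefSeq (GRCm38.p6): 10833 probe sets had 1 symbol, 396 several and 1193 were unlisted. A gene was represented by its brightest probe set.

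limma 3.58.1 in R 4.3.3 fitted 4 group means over 8 arrays, two-sided, with Benjamini-Hochberg adjustment over 12422 probe sets and a threshold of 0.05. The code was also run on simulated arrays with independent noise, so that run does not cover arrays that deviate together. Arrays of the same number deviated together (correlations between groups of 0.367 to 0.740), so values with the number as a block are given beside printed differences whose call they change, and otherwise as counts per list. Alternatives are listed in the closing section.

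The members, lists and rule for named genes (members, fixed genes, up to 4 genes a list by smallest p, 10 most alike) were chosen with earlier results of these data known. Mcpt2, Il12rb1, Cd28, Fas, Kit and Ly6d were named after their values were seen.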

Additional observations from a re-analysis of the deposited data

How the results depend on the processing

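Alternatives were the replicate block, a fit of only the arrays compared, omission of each array in turn, median centring, quantile normalization, a trended robust prior, no probe sets from the dimmest 40%, probe sets averaged per gene, a threshold of 0.01, an offset of 16 and, added after the data had been seen, leaving out both 16-hour arrays of number 1. A lone array was assumed to vary like the other groups. The fall of Gzmb with IFN-γ kept its direction and its call in all 18. Its description in medium became -1.87 with the offset. Its IFN-γ effect at 16 hours lay between 0.16 and 0.45 with 1 array left out, and the difference between its IFN-γ effects between -0.18 and 0.11 with 1 array left out. Without both 16-hour arrays of number 1, the difference of Gzma between 16 and 4 hours with IFN-γ became -0.048 and its IFN-γ effect at 16 hours -0.011, with ranges of -0.048 to 0.22 and -0.011 to 0.26 with 1 array left out. In medium Gzma gave -0.13 with quantile normalization, -0.11 with centring and -0.091 to -0.038 with 1 array left out. For Prf1 such ranges were -0.011 to 0.068 for IFN-γ at 4 hours, -0.016 to 0.078 at 16 hours and -0.044 to 0.049 for the difference of effects. No cause was tested for these shifts.

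The count of granule genes called with IFN-γ at 16 against 4 hours, 7, was 4 with only the arrays compared, 21 with the replicate block, 1 at the stricter threshold, and 0 to 13 with 1 array left out. It was 0 without either IFN-γ array at 4 hours. In medium, 7 became 23 with the block, 1 at the stricter threshold and 1 to 18 with 1 array left out. For IFN-γ at 4 hours, 0 became 1 with only the arrays compared and 1 without both arrays of number 1. At 16 hours, 0 became 1 with quantile normalization, 1 with the trended prior, 3 with the block and 1 without both arrays, and lay between 0 and 1 with 1 array left out. Over all probe sets, counts with IFN-γ at 16 against 4 hours ranged from 27 to 1259 (263 as reported), in medium from 73 to 1567 (531), for IFN-γ at 4 hours from 8 to 157 (32), at 16 hours from 7 to 105 (32) and for the difference of effects from 0 to 30 (0). For 53 differences of genes other than the 3 members, recomputed 18 times each, 160 of 954 values lost and 43 gained a call, and 0 changed sign. With 2 arrays a group, genes near or under the antisense controls limit what can be read.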

Other observations

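Klrd1, the gene of the NK cell receptor chain CD94, ranged from 7.29 to 8.02 on the log2 scale, above the antisense controls on all 8 arrays, although DBA/2J mice are known to lack CD94 through a deletion in this gene. Beside it, Ncr1 stayed between 2.65 and 2.91.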
